A study of Mus musculus with 40 samples.

Results

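The naive pluripotency transcription factors described here are *Prdm14*, *Tfcp2l1*, *Klf2*, *Klf4*, *Klf5*, *Nanog*, *Esrrb*, *Nr0b1*, *Zfp42* and *Tbx3*, 10 genes taken by name from a table of 56748 genes, all 10 among the 23399 genes that passed the filter on low counts. On GRCm39 they lie at chr1:13183681-13197387 (*Prdm14*), chr1:118555675-118612898 (*Tfcp2l1*), chr4:55527143-55532466 (*Klf4*), chr5:119808734-119822789 (*Tbx3*) and chr6:122684448-122691592 (*Nanog*). The others lie at chr8:43748100-43760017 (*Zfp42*), chr8:73072877-73075500 (*Klf2*), chr12:86407891-86568402 (*Esrrb*), chr14:99536127-99552472 (*Klf5*) and chrX:85235370-85239553 (*Nr0b1*). Total RNA was sequenced from mouse embryonic stem cells (mES cells) and from epiblast-like cells (EpiLCs), in 40 libraries that each came from a separate culture well. mES cells were held in serum-free, feeder-free medium with LIF, 3 µM of the GSK3 inhibitor CHIR-99021 and 1 µM of the MEK inhibitor PD0325901, and EpiLCs were collected 48 h after plating of mES cells in 20 ng/mL FGF and 12 ng/mL Activin A. The 4 genotypes at each stage were wild type (WT, n = 8), a knockout of the lamin B receptor gene *Lbr* (LBRKO, n = 4), a triple knockout of the lamin genes *Lmna*, *Lmnb1* and *Lmnb2* (TKO, n = 4) and a quadruple knockout in which *Lbr* was disrupted in TKO cells (QKO, n = 4). QKO cells were a single clone, carry the lamin deletions of the TKO cells and, by the study's genotyping, hold a frameshift deletion and an in-frame deletion of *Lbr*. TKO and WT cells came from littermates, so TKO and QKO differ from WT also as separately derived lines. LBRKO cells were made from WT cells as several clones, and the labels do not say which clone a library came from. The spread between libraries of TKO or of QKO is therefore a spread between wells and not between independently made lines, and p-values measure that spread. For LBRKO it is not known whether the spread between libraries also holds a spread between clones.

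The members work as a mutually reinforcing network in naive mES cells. LIF acts through STAT3 to induce *Klf4* and *Tfcp2l1*, inhibition of MEK sustains *Nanog*, *Klf2* and *Prdm14*, and inhibition of GSK3 relieves repression by TCF7L1, which raises *Esrrb* and *Nanog* among others. When LIF and the inhibitors are withdrawn and FGF and Activin are supplied, the network is dismantled while *Pou5f1* stays on, and genes of the formative epiblast such as *Fgf5* and *Otx2* are induced. Lamins and LBR hold heterochromatin at the nuclear periphery, and the study asked how their loss affects the switch.

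Between 22.6 and 48.9 M counts were assigned to genes per library. Levels are given as CPM, read counts per M counts of the library after TMM scaling of library sizes, and log2 fold changes with their SE. A gene is called where it passed both thresholds, an adjusted p under 0.05 and a change of over 2-fold. *Lmnb2* RNA followed the labels. It was between 87.2 and 120 CPM in WT and LBRKO libraries and between 1.02 and 4.71 CPM in TKO and QKO libraries. *Lmnb1* did as well, with mES means of 515 CPM in WT, 530 in LBRKO, 8.47 in TKO and 13.8 CPM in QKO. *Lmna* RNA had lower means in TKO and QKO but was not lost. Its means in WT, TKO and QKO were 57.8, 15.9 and 19.1 CPM in mES cells. In EpiLCs they were 11.3, 7.75 and 8.38 CPM. *Lbr* RNA was lowered and not lost: it was 347 to 513 CPM in WT, 236 to 291 CPM in QKO and 145 to 403 CPM in LBRKO libraries, where replicates 1 and 2 (in mES cells 274 and 253 CPM, in EpiLCs 403 and 392 CPM) were above replicates 3 and 4 (145 and 162 CPM, 196 and 233 CPM). Small deletions in the coding sequence of *Lbr* need not lower its RNA, so this level does not check the knockout. In replicate 7 of WT mES cells 3.25% of genes lay over 2-fold from the group median, the highest share of any library.

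The bases just before an annotated start of transcription are shown for *Esrrb*, *Nr0b1*, *Zfp42* and *Nanog*, the 4 members whose EpiLC differences the text describes in most detail. They are the 250 bases before the first base of the canonical GENCODE M39 transcript, read from GRCm39 and printed 5′ to 3′ on the strand of the gene. Which start these cells use was not tested, and the start taken for *Esrrb* lies within its gene span given above. Capitals mark matches on either strand to CCACCC (bound by KLF factors), ATGCAAA (POU5F1), ACAATG (SOX2), AAGGTCA (ESRRB), CTTTGA (TCF/LEF) and TTCNNNGAA (STAT). *Esrrb* lies at chr12:86468168-86468417 (+), *Nr0b1* at chrX:85235088-85235337 (+), *Zfp42* at chr8:43760153-43760402 (-) and *Nanog* at chr6:122684237-122684486 (+).
Esrrb: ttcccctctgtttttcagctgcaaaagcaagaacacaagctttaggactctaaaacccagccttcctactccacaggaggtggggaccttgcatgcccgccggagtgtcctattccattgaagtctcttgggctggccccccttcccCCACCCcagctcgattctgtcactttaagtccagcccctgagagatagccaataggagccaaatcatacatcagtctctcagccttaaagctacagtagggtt
Nr0b1: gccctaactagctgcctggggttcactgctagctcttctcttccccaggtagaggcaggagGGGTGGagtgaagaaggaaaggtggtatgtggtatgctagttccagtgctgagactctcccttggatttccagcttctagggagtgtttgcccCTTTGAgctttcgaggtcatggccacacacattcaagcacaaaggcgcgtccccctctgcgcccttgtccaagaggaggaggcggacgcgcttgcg
Zfp42: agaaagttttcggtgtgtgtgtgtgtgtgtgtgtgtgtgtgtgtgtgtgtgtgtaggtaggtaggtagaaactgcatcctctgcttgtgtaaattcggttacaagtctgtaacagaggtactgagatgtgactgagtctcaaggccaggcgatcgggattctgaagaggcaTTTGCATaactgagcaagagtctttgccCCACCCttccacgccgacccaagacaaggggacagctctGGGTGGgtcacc
Nanog: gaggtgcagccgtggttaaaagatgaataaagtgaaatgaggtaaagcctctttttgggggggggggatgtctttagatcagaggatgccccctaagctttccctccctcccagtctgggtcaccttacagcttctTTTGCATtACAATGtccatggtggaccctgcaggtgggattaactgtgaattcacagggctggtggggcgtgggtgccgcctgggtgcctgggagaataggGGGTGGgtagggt

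CCACCC was found before 7 of the 10 members (*Esrrb*, *Klf2*, *Klf5*, *Nanog*, *Nr0b1*, *Prdm14* and *Zfp42*) and before 28.6% of 21757 protein-coding genes. ATGCAAA was found before *Nanog* and *Zfp42* and in 4.03% of all windows, and ACAATG before *Nanog*, just downstream of the ATGCAAA match, and in 9.41%. AAGGTCA was found before *Prdm14* (3.93% of all windows), CTTTGA before *Nr0b1* (14.1%) and TTCNNNGAA before none of the members (7.70%). The windows also differed in CpG dinucleotides: *Nanog* and *Esrrb* had 3 each, *Zfp42* 6 and *Nr0b1* 8, where the other members had from 11 (*Prdm14*) to 32 (*Klf4*) and the median window had 8. A match is a description of these letters only.

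**Figure D1:**
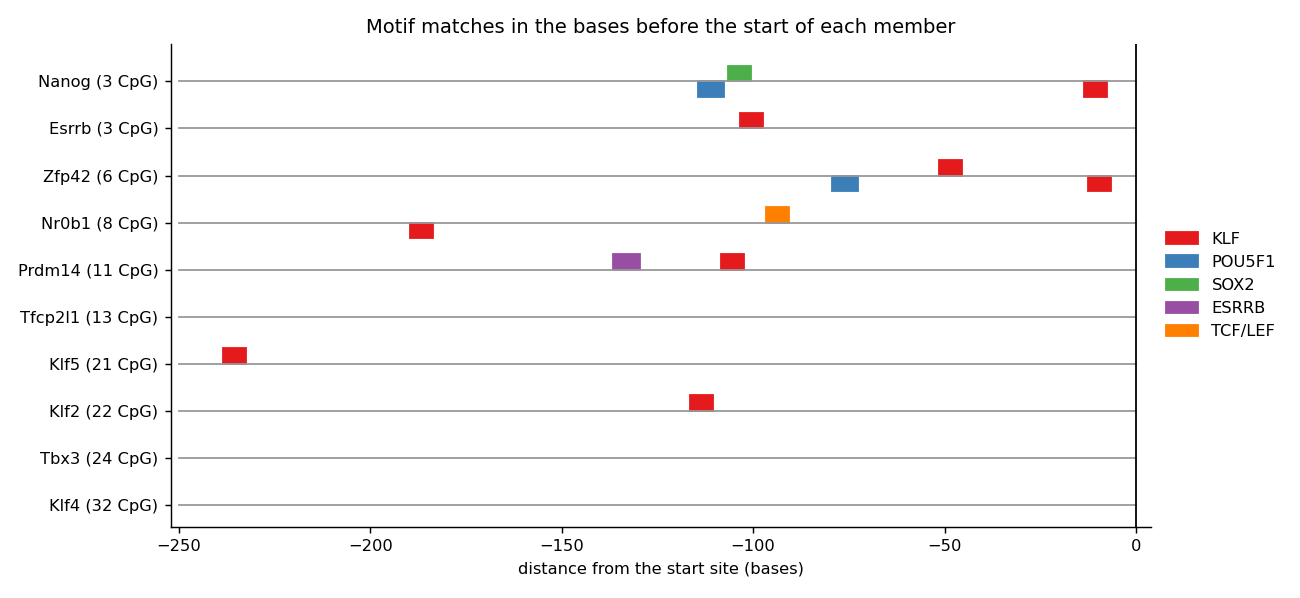
Motif matches in the 250 bases before the start of each member, with the distance from the start site in bases on the x axis, matches on the strand of the gene drawn above the line and those on the other strand below it. Members are ordered by their number of CpG dinucleotides, from 3 in *Nanog* and *Esrrb* to 32 in *Klf4*, and the 4 members printed above are the 4 with the fewest.

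In WT cells all 10 members fell from mES cells to EpiLCs, where 12.9% of all genes tested were called lower. The log2 fold change ranged from -2.62 ± 0.07 for *Klf5* to -9.03 ± 0.17 for *Prdm14*, with a median of -4.76 over the 10 members and of 0.07 over all genes. Per kilobase of exon, *Nanog* was the most abundant member in WT mES cells at 361 CPM per kb, followed by *Tfcp2l1* (188), *Klf2* (184), *Zfp42* (165), *Esrrb* (151), *Klf5* (78.4), *Klf4* (66.0), *Nr0b1* (46.2), *Tbx3* (31.1) and *Prdm14* (20.7). In WT EpiLCs *Nanog* was still first at 34.5 CPM per kb, and *Klf5* (12.7) and *Zfp42* (12.0) came next.

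*Prdm14*, a PR-domain regulator that restrains FGF signalling and DNA methylation, had 46.1, 53.6 and 57.7 CPM in WT mES cells (lowest, median and highest of 8) and at most 0.274 CPM in WT EpiLCs. Its 29 counts over the 8 WT EpiLC libraries, 2 of which held none, gave a ratio of mES cells to EpiLCs of 542, with an exact Poisson interval for the EpiLC counts of 377 to 809 (95%, counting error only). *Tbx3*, a T-box factor downstream of LIF, went from 176, 200 and 267 CPM to 0.767, 1.66 and 3.98 CPM. *Tfcp2l1*, a grainyhead-like factor induced by STAT3, went from 1470, 1720 and 2230 CPM to 10.8, 18.0 and 20.9 CPM, and *Esrrb*, an orphan nuclear receptor, from 866, 899 and 991 CPM to 13.9, 15.1 and 19.3 CPM. These 4 members kept from 0.186% (*Prdm14*) to 1.75% (*Esrrb*) of their mES mean in WT EpiLCs.

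The Krüppel-like factors and the remaining members kept more. *Klf5* fell least, from 344, 410 and 446 CPM to 53.8, 67.8 and 73.6 CPM, and kept 16.3% of its mES level. *Nanog*, the homeodomain factor, kept 9.57%, *Nr0b1*, an X-linked nuclear receptor without a DNA-binding domain, 8.14%, and *Zfp42* (REX1), a zinc finger protein widely used as a naive marker, 7.28%. *Klf2* kept 4.25% and *Klf4* 3.15%. No member's mES and EpiLC values overlapped in WT, which held for 35.4% of all genes.

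**Figure D2:**
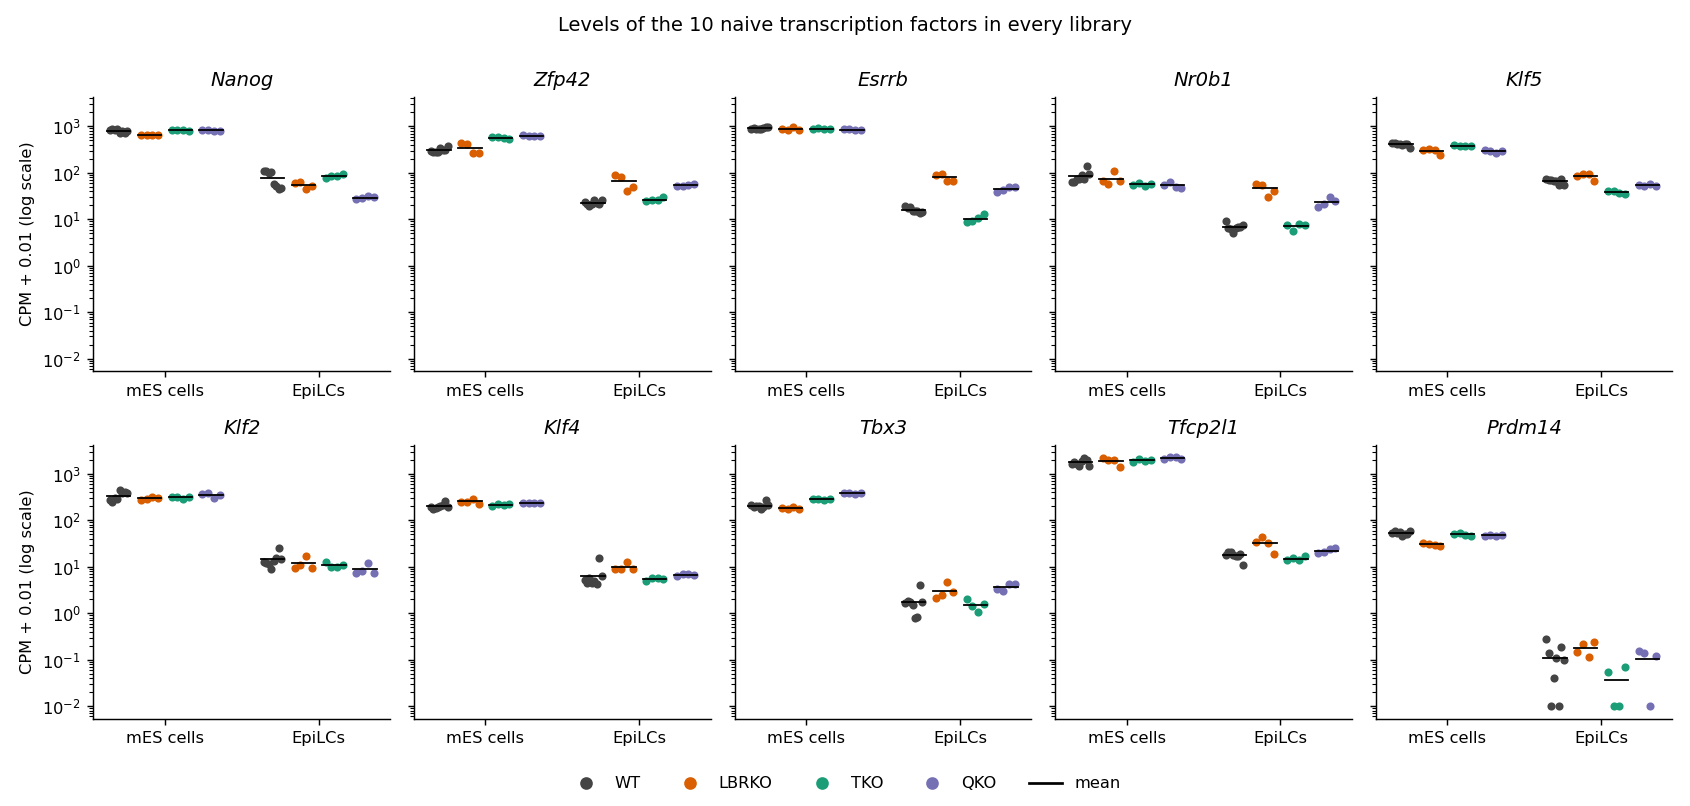
CPM of each member in every library, with 0.01 added and a log scale on the y axis. Points are libraries ordered by replicate number within a group, bars are group means, and the mES cells of the 4 genotypes stand left of the EpiLCs. In mES cells TKO and QKO lie above WT for *Zfp42* and *Tbx3*, and LBRKO lies below WT for *Prdm14*. In EpiLCs LBRKO and QKO lie above WT and TKO for *Esrrb*, *Nr0b1* and *Zfp42*.

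In mES cells, the counts of members called in 4 comparisons between genotypes were near the shares over all genes. None of the 10 was called in LBRKO against WT, none in TKO against WT and none in QKO against TKO, and 1, *Zfp42*, was called in QKO against WT, where 6.31%, 6.45%, 6.21% and 17.2% of all genes were called. At an unadjusted p under 0.05 the 4 comparisons held 3, 3, 2 and 5 members. Here and below, the share of all genes at that looser threshold was not computed. The shares given are those of called genes and do not apply to such counts. With DESeq2 in place of edgeR the counts were the same, 0, 0, 0 and 1. Comparisons with WT share the same WT libraries, and the values are set side by side for that reason.

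*Zfp42* had 278, 302 and 376 CPM in WT mES cells (lowest, median and highest). It had 599, 577, 563 and 529 CPM in TKO mES cells and in QKO 665, 626, 615 and 630 CPM, all above the WT range. In LBRKO it had 442, 415, 266 and 271 CPM, so that replicates 1 and 2 lay above WT and replicates 3 and 4 below its lowest library. The log2 fold change was 1.03 ± 0.13 in QKO (edgeR, adjusted p = 8.54e-09) and 0.87 ± 0.13 in TKO (adjusted p = 1.05e-06), which is under 2-fold. Without the low-count filter, against WT replicates 5 to 8 only, or with each chromosome scaled to its own median, the QKO value was 0.95, 0.92 and 0.95 and no longer over 2-fold. *Zfp42* lies on chromosome 8, whose median log2 difference to WT was 0.07 in QKO and -0.01 in TKO mES cells.

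*Tbx3* was also highest in QKO mES cells. It had 388, 394, 377 and 383 CPM there, 290, 294, 277 and 281 CPM in TKO, 183, 177, 189 and 174 CPM in LBRKO and 176, 200 and 267 CPM in WT. All QKO and TKO libraries were above all WT libraries, at 0.90 ± 0.15 (adjusted p = 5.51e-06) and 0.47 ± 0.16 (adjusted p = 0.0247) on the log2 scale, and both stayed under 2-fold. QKO was over 2-fold above LBRKO, by 1.09 ± 0.18 (adjusted p = 4.69e-06), the one member called in that comparison, where 18% of all genes were.

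*Klf5* was lower in LBRKO and QKO mES cells and *Prdm14* in LBRKO mES cells, each by less than 2-fold. *Prdm14* had 32.7, 31.2, 28.9 and 28.6 CPM in LBRKO mES cells, all below the WT range, and fell by 0.81 ± 0.12 on the log2 scale (adjusted p = 7.17e-07). In QKO mES cells it had 46.8, 49.3, 46.3 and 48.2 CPM and in TKO 51.7, 54.0, 48.1 and 47.0 CPM, within the WT range. *Klf5* had 309, 326, 310 and 241 CPM in LBRKO and 309, 290, 261 and 298 CPM in QKO mES cells, below the WT range of 344 to 446 CPM, where TKO had 374 to 396 CPM. It differed from WT by -0.46 ± 0.08 (adjusted p = 3.40e-05) in LBRKO and by -0.49 ± 0.08 (adjusted p = 4.29e-06) in QKO, and QKO differed from TKO by -0.41 ± 0.09 (adjusted p = 0.00110).

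*Nr0b1* passed the adjusted p but not the fold in TKO (-0.57 ± 0.17, adjusted p = 0.0137) and QKO mES cells (-0.64 ± 0.18, adjusted p = 0.00275). WT mES cells had 63.3, 72.9 and 141 CPM, the last in replicate 7, TKO had 55.4, 58.9, 52.4 and 57.6 CPM and QKO 54.5, 63.4, 49.3 and 47.3 CPM. All TKO libraries lay below WT, and QKO replicate 2 overlapped the lowest WT library. The other members, *Tfcp2l1*, *Klf2*, *Klf4*, *Nanog* and *Esrrb*, did not pass the adjusted p in any knockout against WT in mES cells. *Esrrb* had a group mean of 852 to 913 CPM in the 4 genotypes. Over the 30 neighbouring pairs in the order of the genotype means in mES cells, 4 differed at an adjusted p under 0.05: QKO above LBRKO for *Prdm14*, TKO above LBRKO for *Klf5* and *Zfp42*, and TKO above WT for *Tbx3*. Pairs of all genes were not counted in this way.

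In EpiLCs 3 members were higher in LBRKO than in WT, 4 were higher and 1 lower in QKO, and none passed both thresholds in TKO. In LBRKO against WT, *Esrrb*, *Nr0b1* and *Zfp42* were called higher, 3 of 10 members where 3.04% of all genes were called higher. In TKO against WT no member was called where 2.91% of all genes were, with 4 members at an unadjusted p under 0.05 and none called by DESeq2. In QKO against WT, *Esrrb*, *Nr0b1*, *Zfp42* and *Tbx3* were called higher and *Nanog* lower, where 13% of all genes were called higher and 8.16% lower. QKO against TKO, the comparison that adds loss of *Lbr* to cells without lamins, called the same 5 members in the same directions, where 9.97% of all genes were higher and 5.29% lower. Both QKO comparisons use the same QKO libraries. In these bulk libraries, a larger share of cells with naive expression and more RNA per cell cannot be told apart.

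**Figure D3:**
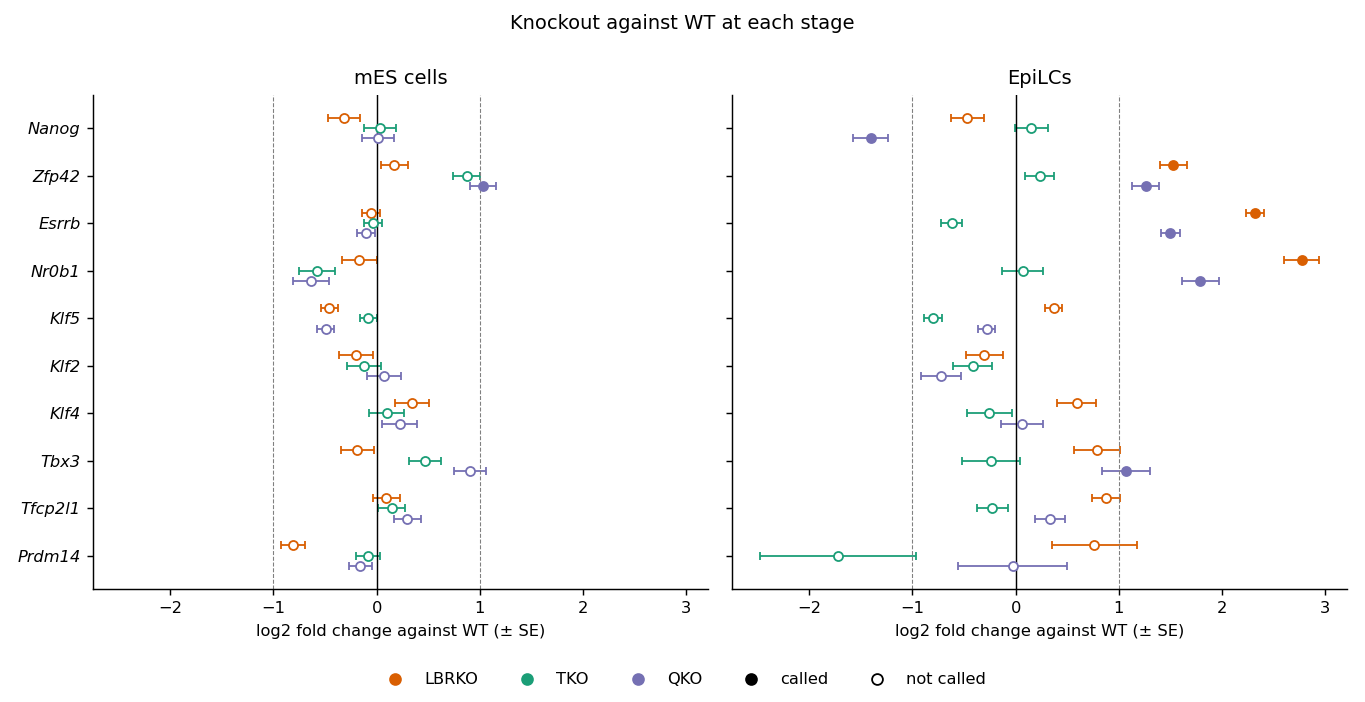
Log2 fold change of each member against WT of the same stage, with SE, in mES cells (left) and EpiLCs (right). Filled points passed an adjusted p under 0.05 and a 2-fold change, and dashed lines mark 2-fold. In mES cells the single filled point is *Zfp42* in QKO, and in EpiLCs the filled points are *Esrrb*, *Nr0b1* and *Zfp42* in LBRKO, those 3 with *Tbx3* in QKO, and *Nanog* below 0 in QKO.

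*Nr0b1* had the largest difference to WT among the 3 members called in LBRKO. It had 5.17, 6.64 and 9.06 CPM in WT EpiLCs and 7.68, 5.50, 7.92 and 7.42 CPM in TKO EpiLCs, against 58.5, 55.8, 30.6 and 40.7 CPM in LBRKO and 18.5, 21.1, 29.9 and 24.3 CPM in QKO EpiLCs. Every LBRKO library was above every QKO library, and every QKO library above every WT and TKO library. The log2 difference to WT was 2.77 ± 0.17 in LBRKO (adjusted p = 3.40e-16) and 1.79 ± 0.18 in QKO (adjusted p = 2.81e-11), and that of QKO to TKO 1.72 ± 0.22 (adjusted p = 3.11e-08). TKO and WT differed by 0.07 ± 0.20 (adjusted p = 0.871).

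*Esrrb* was also highest in LBRKO and next in QKO. LBRKO EpiLCs had 91.5, 95.3, 65.3 and 67.0 CPM and QKO EpiLCs 38.7, 41.9, 50 and 49.6 CPM, above the WT values of 13.9, 15.1 and 19.3 CPM. TKO EpiLCs had 8.83, 9.37, 10.4 and 12.7 CPM, all below the lowest WT library. LBRKO exceeded WT by 2.32 ± 0.09 (adjusted p = 2.24e-23), QKO exceeded WT by 1.5 ± 0.09 (adjusted p = 8.36e-18) and TKO by 2.12 ± 0.11 (adjusted p = 1.64e-18), while TKO fell below WT by -0.62 ± 0.10 (adjusted p = 1.65e-05), under 2-fold. All 3 neighbours in the order LBRKO, QKO, WT and TKO differed at an adjusted p under 0.05.

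*Zfp42* had 90.1, 82.2, 39.9 and 49.0 CPM in LBRKO EpiLCs and 52.2, 53.1, 53.5 and 57.7 CPM in QKO EpiLCs, above the WT values of 19.3, 21.9 and 26.1 CPM. TKO EpiLCs, at 25.1, 25.7, 25.9 and 29.4 CPM, overlapped WT although their mES cells had more *Zfp42* than WT mES cells. The difference to WT was 1.53 ± 0.13 in LBRKO (adjusted p = 2.81e-12), 1.26 ± 0.13 in QKO (adjusted p = 1.10e-10) and 0.23 ± 0.14 in TKO (adjusted p = 0.291). QKO exceeded TKO by 1.03 ± 0.16 (adjusted p = 1.36e-06), or 0.96 and under 2-fold with each chromosome scaled to its own median.

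In these 3 members LBRKO replicates 1 and 2 were above replicates 3 and 4 in EpiLCs, as they were for *Lbr* RNA, at 403 and 392 against 196 and 233 CPM. All 4 libraries were above WT for each of the 3 members, and leaving out any single LBRKO library kept all 3 calls. Whether the replicate pairs come from different clones was not tested, since the labels do not name the clone.

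*Tbx3* was low in all EpiLCs. It had 3.28, 3.07, 4.26 and 4.15 CPM in QKO, 2.13, 2.40, 4.70 and 2.85 CPM in LBRKO, 1.99, 1.42, 1.03 and 1.57 CPM in TKO and 0.767, 1.66 and 3.98 CPM in WT, where the highest value was replicate 7 and the next 1.81 CPM. QKO exceeded WT by 1.07 ± 0.23 (adjusted p = 1.42e-04) and TKO by 1.31 ± 0.30 (adjusted p = 3.98e-04). The call against WT was lost, with values of 0.99, 0.95 and 0.95, without QKO replicate 3, WT replicate 5 or WT replicate 6. It was also lost with WT replicates 5 to 8 alone (0.99) and without the 3 libraries that stand apart from their groups (0.96). In LBRKO the difference to WT was 0.79 ± 0.23 (adjusted p = 0.00745), which rose to 1.13 and was called without WT replicate 7.

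*Nanog* moved the other way in QKO. It had 26.7, 28.7, 31.1 and 30.3 CPM in QKO EpiLCs, against 79.0, 84.8, 84.2 and 95.2 CPM in TKO and 61.3, 64.8, 45.8 and 50.9 CPM in LBRKO EpiLCs. QKO was below every other EpiLC library, by -1.56 ± 0.19 against TKO (adjusted p = 7.36e-09) and by -1.40 ± 0.17 against WT (adjusted p = 3.64e-09). In mES cells *Nanog* had 808 to 829 CPM in QKO and 812 to 843 CPM in TKO. The WT EpiLC libraries fell into separate ranges, with 97.8 to 107 CPM in replicates 1 to 4 and 45.0 to 58.6 CPM in replicates 5 to 8, a ratio of means of 0.487. The labels name no batch for these replicates.

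The *Nanog* comparisons with WT depended on that split. Against WT replicates 1 to 4 only, QKO differed by -1.83, LBRKO by -0.90 and TKO by -0.28, and against replicates 5 to 8 only, QKO by -0.80 (adjusted p = 1.18e-09, under 2-fold), LBRKO by 0.14 and TKO by 0.76. The value in LBRKO with all WT libraries was -0.47 ± 0.16 (adjusted p = 0.0256). *Nanog* lies on chromosome 6, where the median gene was 0.37 higher on the log2 scale in LBRKO than in WT EpiLCs and 0.38 higher in mES cells, and each LBRKO library had a chromosome 6 median 0.34 to 0.40 above WT replicates 1 to 4. With each chromosome scaled to its own median, *Nanog* in LBRKO differed from WT by -0.84 in EpiLCs (adjusted p = 1.42e-04) and -0.68 in mES cells (adjusted p = 0.0015). The paper's karyotypes give TKO cells a trisomy of chromosome 8, and a part of the WT cells trisomies of chromosomes 6 and 8. It gives no karyotype of LBRKO cells. Chromosome copy number and genotype cannot be told apart in these libraries. QKO against TKO uses no WT library, and the chromosome 6 median differed by 0.00 between them.

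**Figure D4:**
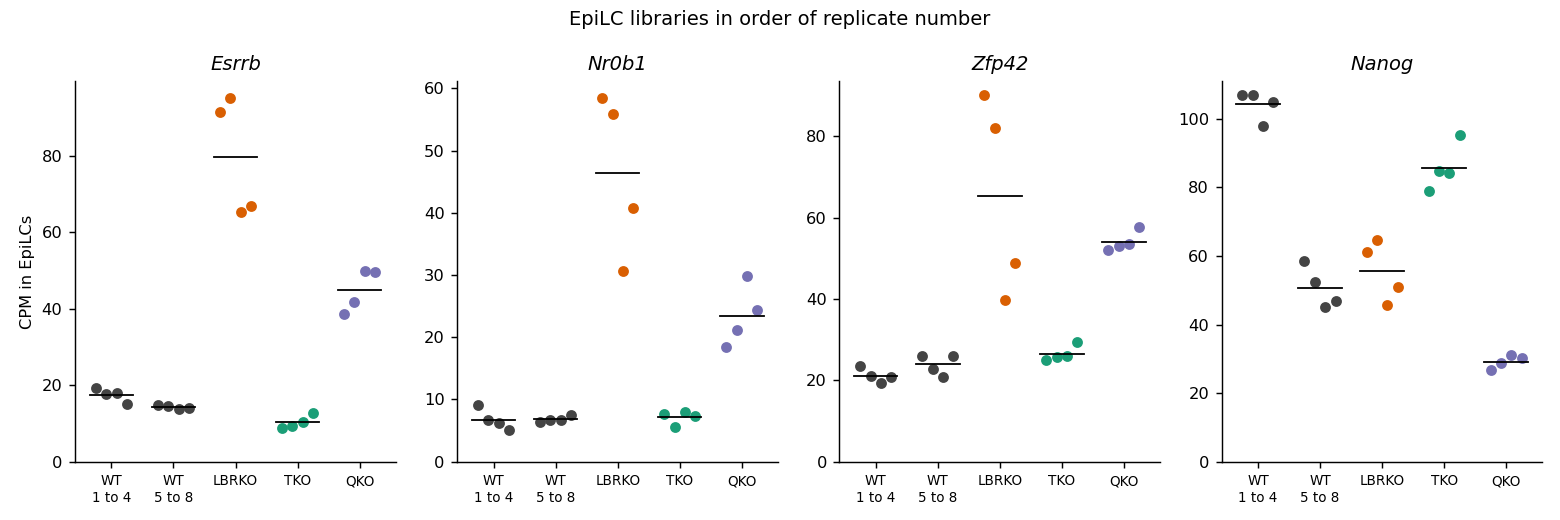
CPM of *Esrrb*, *Nr0b1*, *Zfp42* and *Nanog* in each EpiLC library, with the WT libraries drawn as replicates 1 to 4 and 5 to 8, points in order of replicate number and bars at the mean. LBRKO and QKO lie above WT and TKO for the first 3 genes, and for *Nanog* the WT libraries lie at 97.8 to 107 CPM and at 45.0 to 58.6 CPM, with QKO lowest at 26.7 to 31.1 CPM.

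The remaining members were not called against WT in EpiLCs. *Klf5* had 39.6, 39.7, 37.2 and 35.6 CPM in TKO EpiLCs, all below the WT values of 53.8, 67.8 and 73.6 CPM (-0.80 ± 0.09, adjusted p = 3.11e-09), and 84.1, 95.3, 94.4 and 68.2 CPM in LBRKO (0.37 ± 0.08, adjusted p = 5.46e-04). QKO, at 55.2, 51.9, 58.2 and 53.2 CPM, lay between them (-0.28 ± 0.08 against WT, adjusted p = 0.00467), and all 3 neighbours in the order LBRKO, WT, QKO and TKO differed. *Tfcp2l1* had 33.3, 43.7, 33.2 and 19.1 CPM in LBRKO, where replicate 4 lay inside the WT range of 10.8 to 20.9 CPM, and differed by 0.88 ± 0.14 (adjusted p = 2.73e-06), or by 1.07 and past 2-fold without replicate 4. *Klf4* differed by 0.59 ± 0.19 in LBRKO (adjusted p = 0.0173), with 8.77, 8.79, 12.4 and 8.79 CPM against 4.16, 5.06 and 15.6 CPM in WT. The WT maximum was replicate 7, and the next WT library had 6.18 CPM.

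*Klf2* was lowest in QKO, at 7.24, 8.19, 12.3 and 7.45 CPM against 9.02, 13 and 25.9 CPM in WT EpiLCs (-0.72 ± 0.19, adjusted p = 0.00154). Its WT libraries also fell into separate ranges at both stages, 248 to 305 and 385 to 441 CPM in mES cells and 9.02 to 12.4 and 13.6 to 25.9 CPM in EpiLCs for replicates 1 to 4 and 5 to 8. Against WT replicates 1 to 4 only, the QKO value was -0.36 (adjusted p = 0.0527), and against 5 to 8 only it was -1.0 (adjusted p = 1.05e-05), still just under 2-fold. *Prdm14* held 30 counts in the 4 LBRKO, 3 in the 4 TKO and 12 in the 4 QKO EpiLC libraries, and passed the adjusted p in none of the knockouts against WT.

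LBRKO and TKO differed from each other in more members than either did from WT. In EpiLCs, 7 members were called lower in TKO than in LBRKO, where 4.46% of all genes were: *Esrrb* by -2.94 ± 0.12, *Nr0b1* by -2.70 ± 0.22, *Prdm14* by -2.48 ± 0.72, *Zfp42* by -1.30 ± 0.16, *Klf5* by -1.17 ± 0.10, *Tfcp2l1* by -1.10 ± 0.17 and *Tbx3* by -1.03 ± 0.29, with adjusted p from 6.58e-23 to 0.00759. QKO against LBRKO called none in EpiLCs, where 15.4% of all genes were called, though *Nr0b1* (-0.98 ± 0.20), *Nanog* (-0.93 ± 0.19), *Esrrb* (-0.82 ± 0.10), *Klf5* (-0.65 ± 0.10) and *Tfcp2l1* (-0.55 ± 0.16) were lower in QKO at an adjusted p under 0.05. Of the 30 neighbouring pairs of genotype means in EpiLCs, 14 differed at an adjusted p under 0.05. The same count was not made over all genes, so it does not set the members apart from other genes.

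The switch itself was then compared between genotypes, as the change from mES cells to EpiLCs in a knockout minus that in WT. All 10 members were called lower in EpiLCs in TKO and in QKO and 9 of 10 in LBRKO, where 13.1%, 12.6% and 11.2% of all genes were called lower. The exception was *Nr0b1* in LBRKO, which went from 65.1, 56.2, 109 and 66.8 CPM to 58.5, 55.8, 30.6 and 40.7 CPM, a change of -0.68 ± 0.20 (adjusted p = 0.00332) with overlapping values. Relative to WT, the drop was smaller in LBRKO for 4 members, where 3.12% of all genes were called in that direction: *Nr0b1* by 2.94 ± 0.25 (adjusted p = 7.84e-12), *Esrrb* by 2.38 ± 0.13 (adjusted p = 1.03e-17), *Prdm14* by 1.57 ± 0.44 (adjusted p = 0.00898) and *Zfp42* by 1.36 ± 0.19 (adjusted p = 6.42e-07). In QKO it was smaller for *Nr0b1* by 2.43 ± 0.25 (adjusted p = 3.18e-10) and for *Esrrb* by 1.6 ± 0.13 (adjusted p = 2.08e-13), and larger for *Nanog* by -1.42 ± 0.22 (adjusted p = 2.44e-06), where 12.6% of all genes were called in either direction. With WT replicates 5 to 8 alone the *Nanog* value was -0.91 (adjusted p = 1.46e-07), under 2-fold and no longer called. *Zfp42* did not pass in QKO (0.23 ± 0.19, adjusted p = 0.415), where it was raised at both stages. No member was called in TKO, where 3.03% of all genes were, with 6 members at an unadjusted p under 0.05 and none called by DESeq2.

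As shares of the mean of the same genotype's mES cells, *Nr0b1* kept 62.5% in LBRKO and 43.7% in QKO EpiLCs, against 8.14% in WT and 12.7% in TKO. *Esrrb* kept 9.10% in LBRKO and 5.29% in QKO, against 1.75% in WT and 1.16% in TKO. *Zfp42* kept 18.7% in LBRKO and 8.54% in QKO, near the 7.28% of WT, and 4.68% in TKO. *Klf5* kept 28.8% in LBRKO, 18.9% in QKO, 16.3% in WT and 9.88% in TKO. *Nanog* kept 3.57% in QKO and from 8.55% to 10.4% elsewhere. The median over the 10 members was 3.70% in WT, 6.26% in LBRKO, 3.00% in TKO and 3.21% in QKO.

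**Figure D5:**
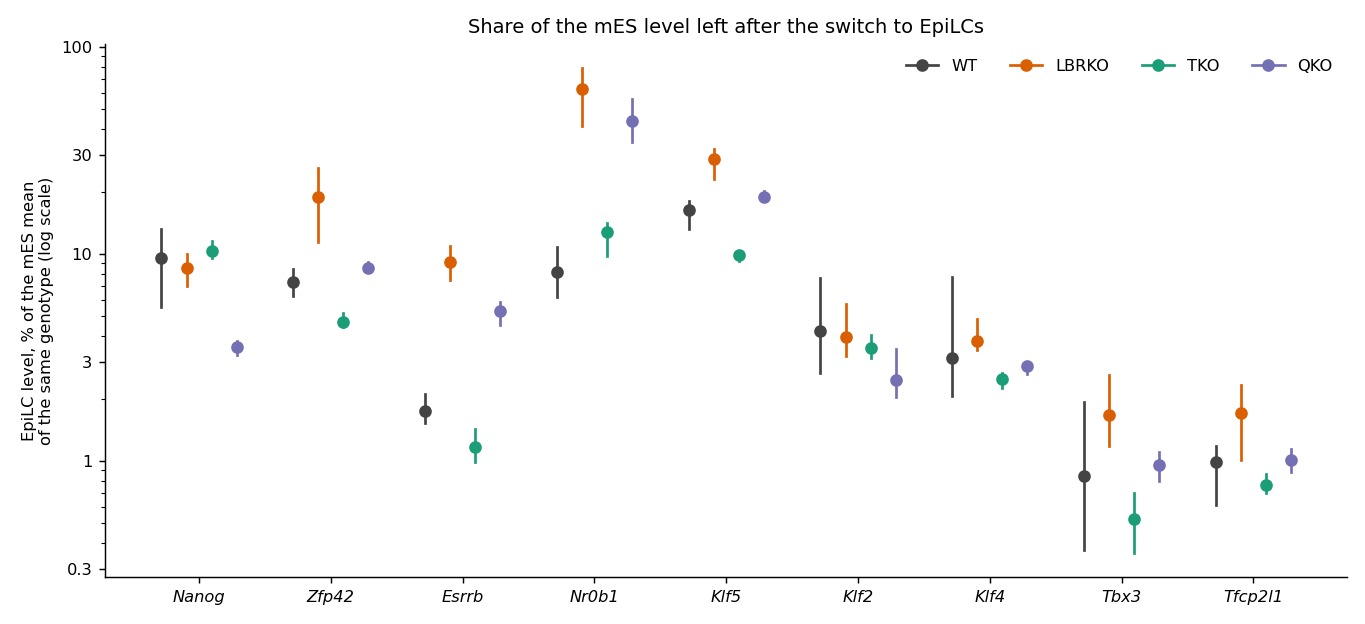
EpiLC level of 9 members as a percentage of the mean mES level of the same genotype, on a log scale, with the group mean as a point and the lowest and highest EpiLC library as the ends of the line. *Nr0b1* reaches 62.5% in LBRKO and 43.7% in QKO, and *Nanog* is lowest in QKO at 3.57%. *Prdm14* is left out because its EpiLC counts include zeros.

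The value of *Prdm14* in LBRKO rests on few reads. Its ratio of mES cells to EpiLCs was 180 in LBRKO (exact Poisson interval for the EpiLC counts 126 to 267), 497 in QKO (285 to 963) and 1837 in TKO (629 to 8910, from 3 counts), against 542 in WT, and its mES level in LBRKO was itself lower. The call was lost without LBRKO EpiLC replicate 4, at 1.39 (adjusted p = 0.0593).

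The QKO change was also set against the sum of the LBRKO and TKO changes on the log2 scale, which asks whether loss of *Lbr* had the same effect with and without lamins. In mES cells no member was called, where 7.5% of all genes were, with 2 members at an unadjusted p under 0.05 and none called by DESeq2, and *Prdm14* passed the adjusted p at 0.73 ± 0.17 (adjusted p = 0.00162). In EpiLCs, *Nanog* (-1.08 ± 0.24, adjusted p = 6.82e-04) and *Nr0b1* (-1.05 ± 0.28, adjusted p = 0.00486) lay below the sum, where 8.05% of all genes were called in either direction. Both calls sat at the 2-fold threshold. Leaving out LBRKO EpiLC replicate 2 ended both, at -1.0 and -0.95. *Nanog* also lost its call with WT replicates 1 to 4 alone (-0.65) and without WT EpiLC replicate 7 (-1.0), and *Nr0b1* without LBRKO EpiLC replicate 1 (-0.91), QKO EpiLC replicate 1 (-0.96) or TKO EpiLC replicate 3 (-0.99). For *Nanog*, whose chromosome 6 median was itself -0.35 from the sum, the value was -0.80 with each chromosome scaled to its own median. *Esrrb* was -0.20 ± 0.14 from the sum (adjusted p = 0.332), with a 95% interval of -0.49 to 0.08.

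Other genes of the naive state were counted from a list of 15. In WT, 12 fell from mES cells to EpiLCs, where 12.9% of all genes were called lower, and none rose. The median was -3.46 over the 14 genes other than *Spic*. In LBRKO EpiLCs 7 of the 15 were called higher than in WT, where 3.04% of all genes were, and none lower (median of the 14 genes 0.88). In QKO 4 were called higher, where 13% of all genes were, and none lower (0.21). In TKO 1 was called higher, *Dppa3* at 1.37 (0.04), where 2.91% of all genes were called in either direction. Without *Spic*, 6 of 14 were higher in LBRKO and 3 of 14 in QKO. The median over all genes was between -0.04 and 0.00. *Khdc3*, a maternal-effect gene of the oocyte, was 2.44 ± 0.27 higher in LBRKO EpiLCs, *Nr5a2*, a nuclear receptor that can stand in for *Pou5f1* in reprogramming, 1.54 ± 0.12, and *Fbxo15* 1.36 ± 0.08. *Spic*, an ETS factor of the naive state, was at 0 counts in all 8 WT and all 4 TKO EpiLC libraries, against 6 counts in the LBRKO and 7 in the QKO libraries, too few for a fold change to be given, though both pass the test. In QKO EpiLCs *Jam2* was 2.22, *Dppa3* 1.99 and *Tcl1* 1.34 higher than in WT on the log2 scale. The drop from mES cells was smaller in LBRKO than in WT for 9 of the 15, where 3.12% of all genes were called in that direction. In QKO it was smaller for 4 and larger for 1, where 12.6% of all genes were called in either direction.

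Genes of the formative and primed epiblast rose as well in each genotype, 11 of 12 in WT and TKO and 10 of 12 in LBRKO and QKO, where 18.2% of all genes in WT, 17.2% in TKO, 15.3% in LBRKO and 17.7% in QKO were called higher. *Fgf5* reached 146 CPM in WT, 85.7 in LBRKO, 158 in TKO and 180 CPM in QKO EpiLCs, and *Otx2* 119, 61.7, 70.1 and 166 CPM. None of the 12 was called in LBRKO against WT EpiLCs, where 1327 of 23399 genes were. The median of the 12 was -0.36 there. In QKO *Wnt8a* was called higher (2.5) and *Cdh2* lower (-1.10), where 13% of all genes were called higher and 8.16% lower. In mES cells *Otx2* was 9.13 CPM in WT and 0.561 CPM in LBRKO (-3.99).

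Upstream of the members, the LIF receptor *Lifr* was higher in the same genotypes. It had 31.4 CPM in WT and 34.2 CPM in TKO EpiLCs, against 87.4 CPM in LBRKO (1.48 above WT) and 119 CPM in QKO (1.92 above WT), and was the one gene called higher in LBRKO and in QKO against WT of the 10 genes of LIF and STAT3 signalling. *Socs3*, the feedback inhibitor induced by STAT3, fell by 4.51 in WT and was 4.70 CPM in WT, 4.29 in LBRKO, 9.42 in TKO and 3.67 CPM in QKO EpiLCs, so that it was called higher in TKO against WT (1.03). Of 10 genes of GSK3, beta-catenin and TCF, none was called in LBRKO or TKO against WT EpiLCs, and *Tcf7* was lower in QKO (-1.09). Over all genes, 3.04% were called higher in LBRKO, 2.91% in either direction in TKO, and 13% higher and 8.16% lower in QKO. *Sp5*, a beta-catenin target, was 56.3 CPM in WT, 103 CPM in LBRKO, 10.3 CPM in TKO mES cells and 18.2 CPM in those of QKO, called lower in TKO (-2.45) and QKO (-1.63).

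Of 14 factors of exit from the naive state, 1 was called higher in each of LBRKO and QKO against WT EpiLCs, in both cases *Folr1* (1.5 and 1.77), and none in TKO. Over all genes, 3.04% were called higher in LBRKO against WT EpiLCs, where 1327 of 23399 were called in either direction. In TKO 2.91% were called in either direction, and in QKO 13% higher and 8.16% lower. Of 11 cofactors of the members, 2 were called in LBRKO, *Nr5a2* and *Tet2* (1.30), which the list of other naive genes also holds, and *Tet1*, which encodes a methylcytosine dioxygenase, was called in QKO (1.02). Of 6 core pluripotency factors, *Sox2* was called higher in QKO EpiLCs (1.12), at 125 CPM against 57.7 CPM in WT, and *Pou5f1* had 490 CPM in WT and 288 CPM in QKO EpiLCs without a call. Of 14 tested genes in the rest of the KLF family, none was called in LBRKO or TKO EpiLCs, and *Klf15* was lower in QKO (-1.81). In QKO these counts were near the shares over all genes. The 2 of 11 cofactors called higher in LBRKO were above the 3.04% of all genes, a difference that rests on 2 genes. Of 13 tested paralogs of the other members, *Tbx2*, the nearest relative of *Tbx3*, was called higher in LBRKO (1.46) and QKO (1.28) and lower in TKO EpiLCs (-1.72), at mean levels under 1 CPM.

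Markers of other cell types differed between stages and genotypes. In mES cells the 8 primitive endoderm markers summed to 128 to 182 CPM in WT, 168 to 261 in LBRKO, 125 to 129 in TKO and 73.7 to 79.7 CPM in QKO, and the 8 trophectoderm markers to 113 to 130, 147 to 153, 102 to 108 and 69.1 to 75.9 CPM. The 8 primitive endoderm markers summed to 24.2 to 34.3 CPM in WT, 24.6 to 25.7 in LBRKO, 26.0 to 30.1 in TKO and 37.7 to 43.3 CPM in QKO EpiLCs, of which *Lama1* gave 9.60 to 26.9 CPM as group means. *Gata6* (2.96) and *Pdgfra* (2.56) were called higher and *Sox7* and *Dab2* lower in QKO EpiLCs, and *Gata6* had 2.90 CPM there and 0.372 CPM in WT. The 8 trophectoderm markers summed to 34.2 to 53.5 CPM over all EpiLC libraries, with 1 called higher in LBRKO and 2 higher and 2 lower in QKO EpiLCs. The 8 fibroblast markers summed to 9.99 to 26.2 CPM in EpiLCs, with 2 called lower in LBRKO, 1 higher in TKO and 3 lower in QKO against WT. Over all genes, 3.04% were called higher in LBRKO against WT EpiLCs, and 1327 of 23399 in either direction. In TKO 2.91% were called in either direction, and in QKO 13% higher and 8.16% lower. *Dcn* had 10.2 CPM in WT and 2.72 CPM in QKO EpiLCs, while *Postn* and *Lum* stayed at or under 0.102 CPM as EpiLC group means. Their part in the members' differences was not tested.

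The genes most like each member over the 8 group means, by the root mean square difference of centred log2 CPM, were *Ly75* for *Nanog* (0.17), *Mitf* for *Klf4* (0.19), *Plagl1* for *Klf2* (0.21), *Ndrg1* for *Klf5* (0.22), *Acsbg3* for *Zfp42* (0.23), *Pla2g4e* for both *Tbx3* (0.30) and *Tfcp2l1* (0.40), *Ccdc141* for *Esrrb* (0.32), *Gstp3* for *Nr0b1* (0.35) and *Crxos* for *Prdm14* (0.42). Among the members themselves the closest pairs were *Klf2* with *Klf4* (0.35) and *Tfcp2l1* with *Tbx3* (0.37). *Nr0b1* had *Klf5* as its nearest member at 0.73, and 110 other genes lay nearer to it.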

How the data were processed

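Total RNA-seq libraries (stranded kit with ribosomal RNA depletion) were made from WT, LBRKO, TKO and QKO mES cells and EpiLCs, and groups follow the sample labels. The authors trimmed reads with cutadapt 2.5, aligned them to GRCm39 with STAR 2.7.10a and counted fragments per gene of GENCODE M30 with featureCounts, and the deposited values are raw read counts of uniquely aligned reads. A second deposited table of counts that include multiple alignments (TEcount 2.2.3) was used as an alternative. Whether counting used strand is not given in the sources used here. Reads of overlapping antisense genes cannot be told apart.

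Counts were fitted for all 40 libraries and 8 groups with edgeR 4.0.16 in R 4.3.3 (TMM scaling, filterByExpr, quasi-likelihood test, two-sided), with Benjamini-Hochberg adjustment over the 23399 genes tested. A call required an adjusted p under 0.05 and a fold over 2. On simulated counts for LBRKO against WT EpiLCs with 21638 genes tested, all 100 genes changed by 1.5 and all 100 changed by 2.5 on the log2 scale were recovered. Changed genes were drawn without those of low counts, and every gene had the same spread between libraries. The simulation therefore does not cover members with few counts or differences between lines. Libraries held 22.6 to 48.9 M counts, and Poisson intervals cover counting error only.

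The text names all 10 members, genes of fixed lists that were called or that mark a pathway, and the nearest gene to each member by the root mean square difference of log2 group means among genes with at least 5 CPM in some group, predicted and clone-named genes left out. Members and lists were chosen with earlier results of these data known. Alternatives were DESeq2 1.42.0, median-ratio scaling, no low-count filter, the groups compared alone, a replicate block, WT replicates 1 to 4 or 5 to 8 alone, the table with multiple alignments and leaving out each replicate. Scaling by chromosome and leaving out the 3 libraries that stand apart (WT mES replicate 7, WT EpiLC replicate 5 and TKO EpiLC replicate 1) were added after seeing the data. Sequences were read from GRCm39 with GENCODE M39 starts.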

Additional observations from a re-analysis of the deposited data

Results flagged for a closer look

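In 9 of 80 sets of libraries, 1 per member and group, the extreme library was farther from its neighbour than Dixon's 95% critical value allows, where chance gives 4. WT replicate 7 held 6 of the 9: in mES cells *Klf4* at 254 CPM, *Nr0b1* at 141 CPM and *Tbx3* at 267 CPM, and in EpiLCs *Klf2* at 25.9 CPM, *Klf4* at 15.6 CPM and *Tbx3* at 3.98 CPM, all of them the highest of the 8. The others were *Tfcp2l1* at 10.8 CPM in WT EpiLC replicate 8, *Klf2* at 284 CPM in TKO mES replicate 3 and *Klf4* at 12.4 CPM in LBRKO EpiLC replicate 3. Sharing a number does not make WT mES and WT EpiLC replicate 7 one culture in the labels.

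The change from mES cells to EpiLCs differed from that in WT, by a test of the difference itself, for *Nr0b1* (2.94), *Esrrb* (2.38), *Prdm14* (1.57) and *Zfp42* (1.36) in LBRKO and for *Nr0b1* (2.43), *Esrrb* (1.6) and *Nanog* (-1.42) in QKO, on the log2 scale. The *Nanog* value was -0.91 and under 2-fold with WT replicates 5 to 8 alone. The QKO difference in EpiLCs differed from the sum of the LBRKO and TKO differences for *Nanog* (-1.08) and *Nr0b1* (-1.05).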

How the results depend on the processing

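Of 410 recomputed counts of members called, in 17 comparisons, 395 stayed within 1.5 times the reported count, and of 4095 recomputed fold changes 22 lost a call and 18 gained one. The sign differed from the reported one in 125, of all 10 members. In 121 of them neither value passed the adjusted p, and the other 4, where one did, were *Nanog*: against WT replicates 5 to 8 alone, LBRKO EpiLCs differed from WT by 0.14 and the change in LBRKO from that in WT by 0.35, against WT replicates 1 to 4 alone TKO EpiLCs differed by -0.28, and with a replicate block QKO mES cells differed by -0.30. With WT replicates 5 to 8 alone the count of the change in QKO against WT was 2 in place of 3 (*Nanog*, -0.91). The count in QKO against WT EpiLCs was 3 in place of 5 with those replicates, that in QKO against WT mES cells was 0 in place of 1 without the low-count filter, with WT replicates 5 to 8 alone or with scaling by chromosome, and that of the change in TKO against WT was 1 in place of 0 without the 3 libraries that stand apart (*Tbx3*, -1.03). The EpiLC count against the sum of LBRKO and TKO was 1 in place of 2 with WT replicates 1 to 4 alone, a replicate block, scaling by chromosome or without the 3 libraries. The cause was not tested.

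Leaving out each replicate gave counts of 4 to 5 for the change in LBRKO against WT, 3 to 4 in LBRKO against WT EpiLCs, 5 to 6 in QKO against TKO EpiLCs, 4 to 5 in QKO against WT EpiLCs, 0 to 2 against the sum in EpiLCs and 0 to 1 in TKO against WT EpiLCs, where *Prdm14* was called without WT EpiLC replicate 6 (-1.94, adjusted p = 0.0496). The other 11 counts did not move. Over all genes, 1477 were called in LBRKO against WT mES cells, 2556 with WT replicates 1 to 4 alone and 2457 with the replicate block, and 682 in TKO against WT EpiLCs, 1196 with WT replicates 5 to 8 alone. Replicate numbers were not treated as pairs: same-numbered deviations correlated at -0.19 to 0.39, over 0.1 for every pair in 0 of 16 comparisons. This rule cannot show that no pairs exist. Between LBRKO EpiLCs and LBRKO mES cells the median was 0.16, and 3 of 4 libraries correlated best with their own number. In WT 4 of 8 did. Whether same-numbered libraries share a culture was not tested. With the replicate block the change in LBRKO against WT called 5 members in place of 4, the EpiLC sum 1 in place of 2, and the other counts were the same. Depth limits *Prdm14* in EpiLCs, where 3 to 30 counts stood behind a group.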
